A study of Homo sapiens with 2 samples.

Results

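Chromatin-associated RNA was examined for 10 genes of the Notch pathway in SH-SY5Y, an established human cell line that grew out of a neuroblastoma and is counted as adrenergic. The genes are the 4 receptors NOTCH1, NOTCH2, NOTCH3 and NOTCH4, the 4 ligands DLL1, DLL3, JAG1 and JAG2, and the 2 target genes HES1 and HEY1. They were taken by symbol and matched to Ensembl identifiers with GENCODE version 44, and all 10 were found among the 60554 genes counted, of which 19586 are protein-coding in that annotation. The cells carried no genetic modification and the labels name no treatment, so that there is 1 condition with 2 replicate libraries and no control. The labels do not say whether the replicates were separate cultures. The spread between them may therefore be technical. RNA was taken from the chromatin fraction, which is rich in transcripts that are still attached to the polymerase, and was sequenced with strand information and molecular identifiers.

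Notch receptors are single-pass membrane proteins that bind ligands of the Delta and Jagged families on a neighbouring cell. Ligand binding exposes the receptor to cleavage by an ADAM protease and then by gamma-secretase, and the freed intracellular domain joins the DNA-binding protein RBPJ and a Mastermind coactivator at genes such as HES1 and HEY1. The products of these genes are basic helix-loop-helix repressors that hold back proneural factors. In neuroblastoma, active Notch signalling is known for its link with the mesenchymal cell state.

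The 2 libraries held 4155210 and 3425309 sense counts in genes, where a count is 1 read pair that matches the exons of only 1 gene, in the direction of that gene. Levels are given as counts per 1000000 counts in genes (CPM) and, wherever genes are set against each other, as CPM per kb of exon. Of all uniquely mapped read pairs, 18.5% and 17.5% were counted in genes, and introns are not part of the values. Markers of the adrenergic type, as which the line is counted, were present. HAND2, ISL1, TFAP2B and GATA2, transcription factors of adrenergic neuroblasts, had mean levels from 69.0 to 231 CPM per kb. Of 5 mesenchymal markers, TWIST1 (289 CPM per kb, above each of the 4 adrenergic markers), VIM (38.0) and FN1 (21.7) reached a mean count of 10, while the means of PRRX1 and FOSL1 were 4 and 0.5 counts. None of the 4 Schwann cell and melanocyte, 4 endothelial and 4 leukocyte markers reached that limit. Their summed sense counts were 2 and 1, 2 and 1, and 1 and 1 in the 2 libraries, and no sense count was found for CD68, CD3E, PTPRC, CDH5, PECAM1, S100B or SOX10. In bulk RNA, fewer cells that transcribe a gene and less RNA per cell cannot be told apart.

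Promoter sequences of HES genes are shown first, and their link with the levels was not tested. HES1 is the best known direct target of RBPJ, whose core recognition motif is TGGGAA. The 250 bases before the RefSeq transcription start (GRCh38.p14) were searched for this motif and its reverse complement TTCCCA, and are printed 5′ to 3′ in the direction of transcription with each match in capitals. HES1 is shown beside HES4 and HES5, of the same family, whose stretches also held a match.
HES1: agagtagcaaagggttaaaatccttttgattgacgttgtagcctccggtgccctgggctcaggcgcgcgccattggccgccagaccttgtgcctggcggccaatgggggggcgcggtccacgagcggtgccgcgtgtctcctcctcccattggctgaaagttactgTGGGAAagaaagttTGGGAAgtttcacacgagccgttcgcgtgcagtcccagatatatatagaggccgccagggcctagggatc
HES4: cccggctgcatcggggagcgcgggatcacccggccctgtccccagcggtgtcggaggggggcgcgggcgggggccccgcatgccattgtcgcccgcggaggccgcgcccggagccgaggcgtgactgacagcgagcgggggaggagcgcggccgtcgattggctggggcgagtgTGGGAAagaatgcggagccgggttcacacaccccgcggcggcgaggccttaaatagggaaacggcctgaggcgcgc
HES5: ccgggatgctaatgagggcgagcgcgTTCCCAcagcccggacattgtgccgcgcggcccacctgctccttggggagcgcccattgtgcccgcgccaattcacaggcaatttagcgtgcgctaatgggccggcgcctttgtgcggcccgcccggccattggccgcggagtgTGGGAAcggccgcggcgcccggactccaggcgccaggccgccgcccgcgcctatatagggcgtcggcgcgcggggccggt
The HES1 stretch lies at chr3:194135898-194136147 on the plus strand, the HES4 stretch at chr1:1000098-1000347 and the HES5 stretch at chr1:2530264-2530513, both on the minus strand. HES1 held 2 matches in the forward orientation, which began 84 and 70 bases before the start. HES4 held 1 forward match at 76 bases, and HES5 held 1 forward match at 80 bases and 1 reverse match at 224 bases. Of 35116 promoter stretches of this length in the table, 20.8% held the motif on either strand and 1.7% held at least 2 copies in 1 orientation. Of the 7 members with an entry (DLL1, DLL3 and HEY1 had none), only HES1 held a match, and of the 9 other genes of the HES and HEY list 5 did. A match is a string of letters and not a bound site.

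Another stretch is shown because it bears on how NOTCH2 is counted. NOTCH2 has partial copies on chromosome 1 that include the human NOTCH2NL genes, and a read pair that maps equally well to several places is given to no gene. The following coding exon of NOTCH2, on the minus strand at chr1:120029906-120029987 of GRCh38, recurs in NOTCH2NLA at chr1:146189300-146189381 with 0 differences over its 82 bases.
NOTCH2: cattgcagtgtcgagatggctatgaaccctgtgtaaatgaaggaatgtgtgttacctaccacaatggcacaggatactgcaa

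Of the 10 genes, 8 had a mean sense count of at least 10 in the 2 libraries, and the share over all protein-coding genes was 59.4%. This limit is not corrected for exon length, so that genes with long exons reach it at a lower level per kb. The part of length in these shares was not tested. A mean count of 10 equals 2.64 CPM here. The median over the 10 genes was 10.1 CPM, against 8.61 CPM over protein-coding genes, and per length it was 1.60 CPM per kb against 1.9 CPM per kb. The members were thus spread around the middle of coding genes, with NOTCH2 above the others. NOTCH2 took 76.0% of all counts of the 10 genes, but its exon length of 16744 bases is also the longest among them. Per kb of exon, NOTCH2 was 2.65 times as high as HES1, the next gene.

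**Figure D1:**
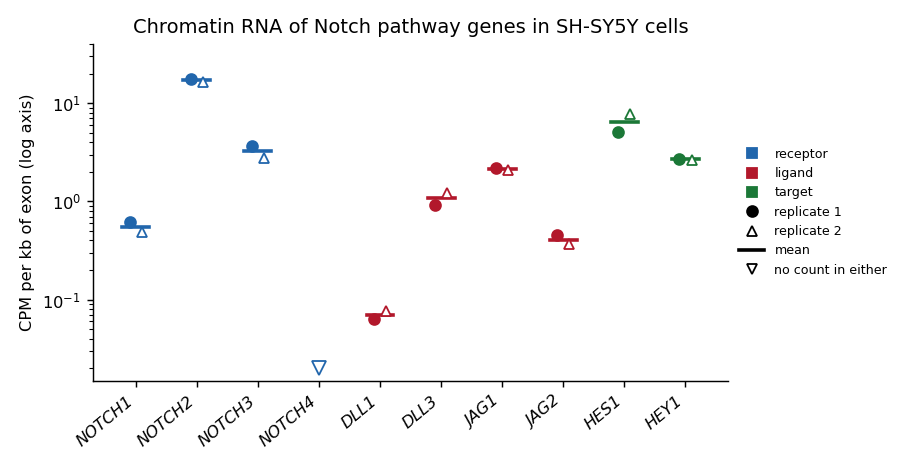
Sense CPM per kb of exon (log axis) for each gene in replicate 1 (filled circles) and replicate 2 (open triangles), with the mean as a bar and colours for receptors, ligands and targets. NOTCH2 stands highest with a mean of 17.2 CPM per kb, and NOTCH4, drawn as an open triangle at the foot, had no count in either library.

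Among the receptors, NOTCH2 dominated. NOTCH2 had 1232 and 954 sense counts in replicates 1 and 2, which is 296 and 279 CPM, or 17.7 and 16.6 CPM per kb of exon (mean 17.2 ± 0.759, SD, n = 2). This level was above that of 89.2% of protein-coding genes. NOTCH2 lies on the minus strand of chromosome 1, from 119911553 to 120100779 (GRCh38), and 8.85% of this span is annotated as exon.
NOTCH3, a receptor known from vascular smooth muscle and from mesenchymal neuroblastoma cells, had 144 and 90 counts, or 3.68 and 2.79 CPM per kb (mean 3.24 ± 0.630, SD, n = 2). It lies on the minus strand of chromosome 19, from 15159038 to 15200995. NOTCH1, the receptor of T cell development and of many neural progenitors, had 32 and 21 counts, or 0.615 and 0.489 CPM per kb (mean 0.552 ± 0.0886, SD, n = 2). It lies on the minus strand of chromosome 9, from 136494433 to 136546048. The libraries of these 3 receptors did not overlap: the lower NOTCH2 value was above both NOTCH3 values, and the lower NOTCH3 value was above both NOTCH1 values.
Per kb of exon, NOTCH2 was 4.81 and 5.96 times as high as NOTCH3 and 28.8 and 34.0 times as high as NOTCH1 in replicates 1 and 2. It made up 80.5% and 83.5% of the summed level of the 4 receptors. NOTCH3 made up 16.7% and 14.0%, and NOTCH1 2.79% and 2.46%. Of the exon bases of NOTCH2, 32.1% had a copy of at least 97% identity over at least 75 bases elsewhere on the primary chromosomes, and 21.5% of its exon windows of 75 bases had an exact one. No exon of NOTCH1 or NOTCH3 had such a copy. With the copied bases taken out of its length and all of its counts kept, which gives upper limits, NOTCH2 had 25.3 CPM per kb and 87.0% of the receptor sum. NOTCH2NLA had 2 and 1 counts, and the paralogs NOTCH2NLB, NOTCH2NLC and NOTCH2NLR have no row under the identifiers used here.

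NOTCH4, the receptor of endothelial cells, had no count on either strand in either library. A count of 0 over the 7580519 counts of both libraries allows a level of up to 0.396 CPM (3 counts, counting error only). NOTCH4 lies on the minus strand of chromosome 6 from 32194843 to 32224067, within the major histocompatibility complex. All of its 9748 exon bases had a copy of at least 97% identity on the alternate sequences of the reference copy used here, on 6 of them, and 99.0% of its exon windows of 75 bases had an exact one. The methods do not say whether the genome index of the study held alternate sequences.
DLL1, the only other member under the limit, was similar. Of its exon bases, 95.8% had a copy of at least 97% identity, on 1 alternate sequence. Of 2991 exon windows of 75 bases in DLL1, 100% had an exact copy on an alternate sequence, and the 8 other members had none. Over the genome, 702 protein-coding genes had an alternate copy of at least 90% of their longest transcript, and 21.2% of them reached a mean count of 10, against 60.8% of the 18884 protein-coding genes without one. No count at all was found in 57.3% of genes with an alternate copy and in 23.7% of those without. Whether these groups of genes differ in other ways was not tested. Of the 94 other coding genes within 1 Mb of NOTCH4, 84 had an alternate copy and 19.1% reached the limit. DDX39B, an RNA helicase of general mRNA export, and CSNK2B, the regulatory subunit of casein kinase 2, are broadly transcribed genes of this complex. Both have an alternate copy and had no count. BAG6 there had 295 and 215 counts although it also has an alternate copy. HLA-B, of the same complex, had no count although it has no alternate copy by the limits used here. DDX39B, CSNK2B, BAG6 and HLA-B were chosen after their values were seen. The part of alternate copies in the values of NOTCH4 and DLL1 was not tested.

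**Figure D2:**
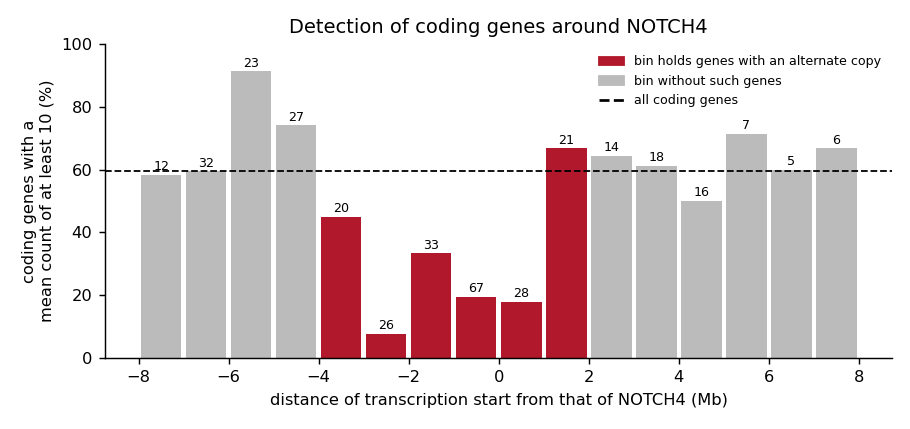
Share of protein-coding genes with a mean sense count of at least 10 (vertical axis, %) in bins of 1 Mb by the distance of their start from that of NOTCH4 (horizontal axis, Mb), with the number of genes above each bar and the share over all coding genes (59.4%) as a dashed line. The bins on either side of NOTCH4 stand at 19.4% and 17.9%, and of the 6 bins that hold genes with an alternate copy (red), 5 lie under the dashed line and 1 lies above it at 66.7%.

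Among the ligands, JAG1 was highest. JAG1, a ligand of the Jagged family known from Alagille syndrome, had 85 and 66 sense counts, or 2.20 and 2.07 CPM per kb (mean 2.14 ± 0.0903, SD, n = 2), near the middle of coding genes (above 51.4%). It lies on the minus strand of chromosome 20, from 10637684 to 10673999. DLL3, a Delta ligand that acts inside its own cell as an inhibitor and is known as a surface marker of neuroendocrine tumours, had 10 and 11 counts, or 0.919 and 1.23 CPM per kb (mean 1.07 ± 0.217, SD, n = 2). JAG2 had 12 and 8 counts, or 0.452 and 0.365 CPM per kb (mean 0.408 ± 0.0611, SD, n = 2). DLL3 and JAG2 both stood at the limit of detection used here, with mean counts of 10.5 and 10. Exact Poisson 95% intervals over both libraries were 16.9 to 23.4 CPM for JAG1. They were 1.71 to 4.23 CPM for DLL3 and 1.61 to 4.07 CPM for JAG2 (counting error only).
DLL1, the Delta ligand of lateral inhibition in neural progenitors, had 1 count in each library, which is 0.264 CPM over both with a 95% interval of 0.0320 to 0.953 CPM (exact Poisson, counting error only). JAG1 made up 60.5% and 55.4% of the summed level of the 4 ligands, DLL3 25.3% and 32.8%, JAG2 12.4% and 9.76%, and DLL1 1.73% and 2.04%. The 2 libraries of JAG1 did not overlap with those of the other 3 ligands. DLL3 lies on the plus strand of chromosome 19 from 39498895 to 39508481, JAG2 on the minus strand of chromosome 14 from 105140982 to 105168824 and DLL1 on the minus strand of chromosome 6 from 170282206 to 170306565. In JAG2, 469 exon bases are shared with a lncRNA of the same strand (ENSG00000257622, no count), and read pairs there are given to neither gene.

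Both target genes were transcribed. HES1, the repressor with the 2 forward matches printed above, had 44 and 55 sense counts, or 5.14 and 7.80 CPM per kb (mean 6.47 ± 1.88, SD, n = 2), above 70.2% of protein-coding genes. It lies on the plus strand of chromosome 3, from 194136148 to 194138732, and 79.7% of this short gene is exon. HEY1, a related repressor known from the heart and blood vessels, had 61 and 50 counts, or 2.68 and 2.66 CPM per kb (mean 2.67 ± 0.0107, SD, n = 2). It lies on the minus strand of chromosome 8, from 79762371 to 79767857. Its 14 annotated transcripts together cover 100% of the gene as exon, so that its level per kb is set against a length of 5487 bases that includes retained introns, and with the longest transcript alone (3878 bases) it was 3.77 CPM per kb. HES1 was 1.92 and 2.93 times as high as HEY1 per kb in the 2 libraries.

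Ordered by mean CPM per kb of exon, the members ran from NOTCH2 through HES1, NOTCH3, HEY1, JAG1, DLL3, NOTCH1, JAG2 and DLL1 to NOTCH4. The ranges of the 2 libraries did not overlap between any neighbours in this order. No test was made, since all genes were measured in the same 2 libraries, which are too few for one. The closest neighbours were NOTCH3 and HEY1, which differed 1.21-fold, and HEY1 and JAG1, which differed 1.25-fold. With the length of the longest transcript, HEY1 (3.77 CPM per kb) came before NOTCH3 (3.51 CPM per kb), and in the unstranded column JAG1 (3.10 CPM per kb) came before HEY1 (2.67 CPM per kb). The order of NOTCH3, HEY1 and JAG1 is therefore not settled. Neither are the last places of DLL1 and NOTCH4, whose exons have alternate copies. The ranges also leave out counting error. With mean counts of only 10.5 for DLL3 and 10 for JAG2, the order of DLL3, NOTCH1 and JAG2 is not settled either. NOTCH2 and HES1 kept the first and second place under both settings and in each library alone.

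**Figure D3:**
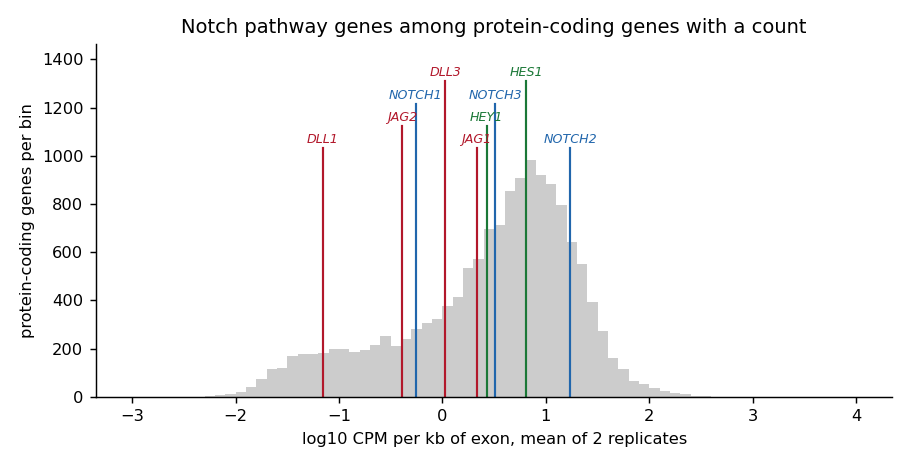
Number of protein-coding genes per bin (grey) by log10 of the mean CPM per kb of exon, for the 14706 coding genes with a count, with the means of the 9 members that had a count as vertical lines (blue receptors, red ligands, green targets). NOTCH2 lies on the upper slope of the distribution, and DLL1 in its lower tail.

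The 2 libraries were also set against each other, gene by gene, by an exact binomial test of how the sense counts split between them, with Benjamini-Hochberg adjustment over the 14978 genes whose mean count reached 10. This compares 2 libraries with counting error only, and not conditions. Over all genes 7.34% differed, and none of the 8 members tested did. Without adjustment, 2 of the 8 had a p under 0.05: HES1 was higher in replicate 2 (10.6 CPM in replicate 1 and 16.1 CPM in replicate 2, exact binomial p = 0.0432, adjusted p = 0.246), and NOTCH3 was higher in replicate 1 (34.7 CPM in replicate 1 and 26.3 CPM in replicate 2, exact binomial p = 0.0416, adjusted p = 0.241). NOTCH2 had a log2 ratio of replicate 1 over replicate 2 of 0.09 and HEY1 one of 0.01. Counts as low as those of DLL3 and JAG2 could show only large differences.

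RNA from the strand opposite to each gene was mostly sparse, with JAG1 as the exception. None of the 8 members with a mean of at least 10 counts on both strands together had more opposite than sense counts in both libraries, and 10% of protein-coding genes did. At JAG1, 85 sense and 33 opposite counts were found in replicate 1, and 66 sense and 41 opposite counts in replicate 2. The opposite strand held 28.0% (95% interval 20.1 to 37.0%) and 38.3% (29.1 to 48.2%) of the counts at its exons (exact Clopper-Pearson intervals, counting error only). Over both libraries the share was 32.9%, and 14.4% of coding genes had a higher one, while the median of coding genes was 1.09%.
Annotated plus-strand genes lie on both sides of JAG1. The DNA repair gene SLX4IP ends 855 bases beyond the 3′ end of JAG1 and points towards it, with 228 and 202 sense counts. The lncRNA ENSG00000270792 shares 306 exon bases with JAG1 and had 0 and 1 sense counts. Counts per gene do not show where in JAG1 the opposite reads lay, and the part of either neighbour was not tested.
The other 9 members together had 37 opposite counts over both libraries. NOTCH2 accounted for 13 and 17 of them, which is 1.04% and 1.75% of its counts. HES1 had 3 and 0, HEY1 2 and 1 and DLL3 0 and 1 opposite counts, and NOTCH1, NOTCH3, NOTCH4, DLL1 and JAG2 had none.

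**Figure D4:**
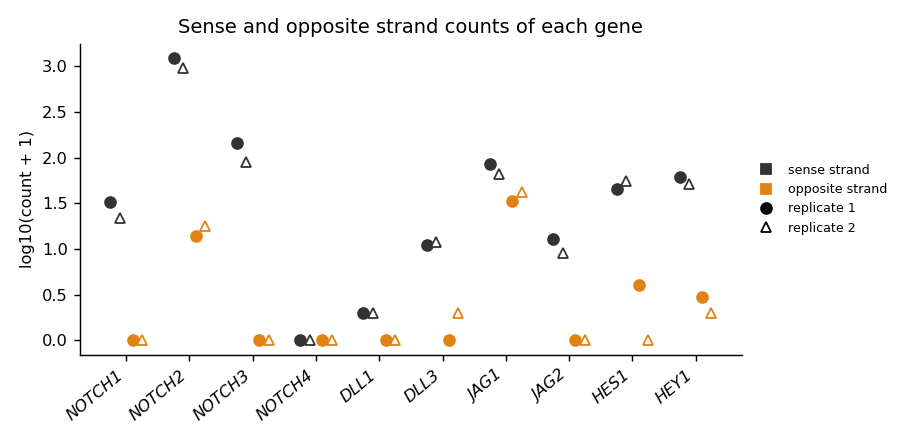
Sense (dark) and opposite (orange) strand counts of each gene as log10(count + 1), in replicate 1 (filled circles) and replicate 2 (open triangles). JAG1 is the member with the most opposite counts (33 and 41), which lie below its sense counts (85 and 66).

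Genes that overlap a member or lie within 5 kb of it had few counts for the most part. The lncRNA NALT1 starts 164 bases from the start of NOTCH1 on the other strand and had 12 and 8 sense counts, beside 32 and 21 of NOTCH1. LINC01607 starts 253 bases from the start of HEY1 on the other strand and had 6 and 4 sense counts. Near HEY1 also lies ENSG00000249328, with 2 and 3 sense counts and 6 and 10 opposite counts. LINC02924 upstream of HES1 had 1 and 1, MIR4673 inside NOTCH1 2 and 0, and NUDT14 near JAG2 27 and 14 sense counts. FAM120B, a transcriptional coactivator gene that shares 370 exon bases with DLL1 on the other strand, had 40 and 43 sense counts, and PBX2, a homeobox gene beside NOTCH4, had 20 and 12. Both of these genes also have an alternate copy.

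The rest of the pathway was covered by lists of 50 further genes, of which 36 reached a mean count of 10, beside 59.4% of protein-coding genes. Their median was 2.92 CPM per kb. Of 4 other ligands, only DLK1, a ligand-like protein of endocrine and adrenal cells, reached the limit, with 23 and 15 counts. DLK2 had 2 and 1, DNER had 2 and 3, and the endothelial ligand DLL4 had no count.
Genes that modify and cleave the receptor were nearly all transcribed, with 13 of 14 at the limit or above. The highest were APH1A, a subunit of gamma-secretase, with 22.9 CPM per kb in both libraries, RFNG, a Fringe glycosyltransferase, with 23.4 and 20.2, the O-glucosyltransferase gene POGLUT1 with 15.2 and 16.6, and the protease gene ADAM10 with 13.0 and 14.3 CPM per kb. The exception was the Fringe gene MFNG, with 1 and 0 counts. Of genes of endocytosis and turnover 11 of 12 reached the limit, led by DTX3 (20.4 ± 0.329 CPM per kb, SD, n = 2), MIB1, the ubiquitin ligase that drives ligand endocytosis (20.1 ± 1.53), FBXW7, which marks the intracellular domain for degradation (18.7 ± 0.972), and ITCH (10.2 ± 0.158). DTX4 had 3 and 0 counts.
In the nucleus, 10 of 11 genes reached the limit. The Mastermind coactivator gene MAML3 had 41.1 and 31.8 CPM per kb, more than NOTCH2 in each library and above 97% of coding genes. SNW1 (21.2 ± 1.12 CPM per kb, SD, n = 2) and the corepressor genes NCOR1 (20.3 ± 1.71) and CIR1 (14.2 ± 1.11) followed. RBPJL, a relative of RBPJ known from the pancreas, had no count. RBPJ itself, named here for its role, had 8.25 and 7.93 CPM per kb, and the other Mastermind genes MAML1 and MAML2 had 8.54 ± 0.525 and 2.97 ± 0.0372 (SD, n = 2).
The last list held other genes of the HES and HEY families and NRARP. Only 1 of these 9 genes reached the limit, and their median was 0.0590 CPM per kb, beside 6.47 for HES1 and 2.67 for HEY1. The limit is a count and does not allow for exon length. HES4 (1.81 CPM per kb), NRARP (0.732) and HES7 (0.567) fell short of it. By the mean per kb, each was still above the members NOTCH1 (0.552) and JAG2 (0.408), which reached it. HES6, a relative that opposes HES1 and promotes neuronal differentiation, had 20 and 15 counts, or 2.46 and 2.24 CPM per kb, and HES4 had 12 and 4 counts, or 2.58 and 1.04 CPM per kb, so that both came near HEY1 in at least 1 library. The Notch feedback gene NRARP had 10 and 5 counts (0.732 ± 0.254 CPM per kb, SD, n = 2), and HES7, of the segmentation clock, had 4 and 4 (0.567 ± 0.0772). HES2, HES3, HES5 and HEY2 had no count, and HEYL had 2 and 0. HES5 also has an alternate copy, so that its 0 stands under the same limit as that of NOTCH4, and the other 3 genes without a count have none.

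**Figure D5:**
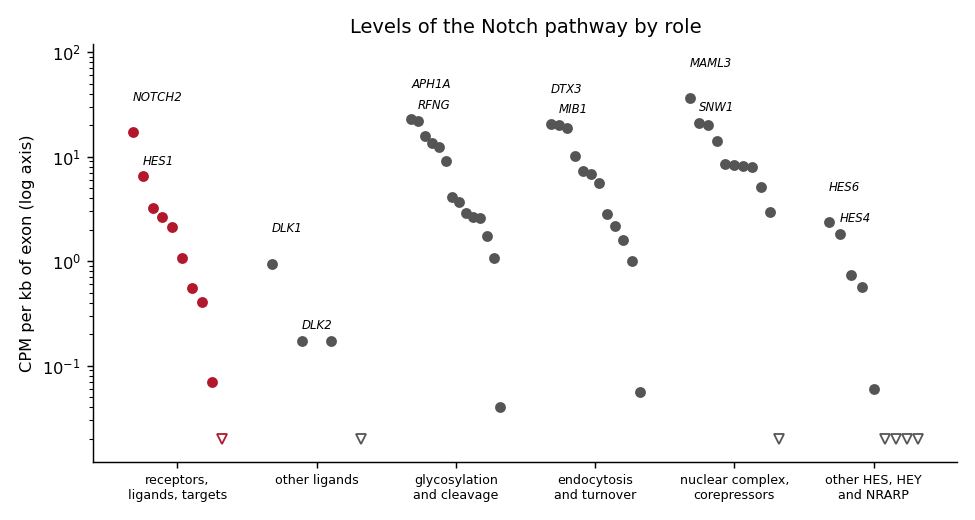
Mean sense CPM per kb of exon (log axis) of the 10 genes (red) and of 50 other genes of the pathway by role (grey), each point 1 gene, with open triangles at the foot for genes without a count and the 2 highest genes of each role named. Glycosylation, turnover and nuclear genes lie mostly above 1 CPM per kb, while other ligands and other HES and HEY genes lie mostly below.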

How the data were processed

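Chromatin RNA of SH-SY5Y cells was sequenced from 2 replicates of 1 condition. The authors extracted molecular identifiers with UMI-tools, trimmed the reads, removed spike-in and rRNA reads with Bowtie, mapped with STAR, removed PCR duplicates and mapped again. The deposited values are raw counts of read pairs per gene, in an unstranded column (2), an opposite column (3) and a sense column (4) that was recognised by its higher total in both libraries. The build is hg38 in the submitters' notes, and the sources used here name neither the gene annotation nor the STAR options. Of 60554 gene rows, 56558 were found in GENCODE version 44 without version numbers, and the 3996 others held 0.394% of the sense counts. Read pairs in no exon (79.4% and 80.7% of uniquely mapped pairs), in exons of several genes (2.09% and 1.79%) or mapped to several places were left out.

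CPM, CPM per kb of the union of GENCODE exons, SD over 2 libraries and exact intervals were computed. The split of counts between libraries was tested by a two-sided exact binomial test for each gene, tried on simulated data, with Benjamini-Hochberg adjustment over all genes tested. Copies of exons and transcripts in hg38 were found by blastn 2.17.0 (at least 97% identity over at least 75 bases), a check chosen after the counts were seen. Promoters were taken from RefSeq (GRCh38.p14). Alternatives were the other strand columns, each library alone, other limits, denominators and lengths, and TMM of edgeR 4.0.16. Analyses ran in Python 3.11.15, numpy 2.4.6, pandas 2.3.3, scipy 1.17.1, matplotlib 3.10.9 and R 4.3.3. The members and lists were chosen with earlier results of these data known. Named genes were all members, of each list the 4 highest by CPM per kb and those without a count, and counted genes within 5 kb of a member. HEYL, MFNG, DTX4, RBPJ, MAML1, MAML2, DDX39B, CSNK2B, BAG6 and HLA-B fall outside this rule and were added after their values were seen.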

Additional observations from a re-analysis of the deposited data

How the results depend on the processing

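No paired analysis was possible because there is only 1 condition, with no second group to pair. NOTCH2 was the highest member under all settings tried except the opposite strand column, where JAG1 was 4.43 times as high per kb as NOTCH2. In that column, which holds RNA of the other strand by construction, 2 members and 10 of the 50 other pathway genes reached a mean count of 10, the median of members was 0.573 CPM, and the shares of NOTCH2 and JAG1 within their roles were 100% and 96.0%. The unstranded column raised the share of JAG1 among ligands to 66.5%, against 58.0% as reported, since the opposite counts of JAG1 enter it. A limit of 100 counts left 2 members and 23 other genes, and a limit of 1 count 9 and 43. Without replicate 1, 7 members reached 10 counts, since JAG2 had 8 in replicate 2. The median of members was 1.82 CPM with uniquely mapped pairs as the total, 14.0 CPM without NOTCH4 and DLL1 (chosen after seeing the data), and 9.15 to 10.4 CPM with either library alone. The share of NOTCH2 among receptors, 82.0% as reported, was 85.7% with the longest transcript as length, 88.5% with no length correction and at most 87.0% with copied bases left out of the length, and that of JAG1 was 66.0% and 77.7% under the first 2 of these. NOTCH2 over HES1 was 2.65-fold, and at most 3.91-fold with copied bases left out. No member differed between the libraries under TMM, in the unstranded column or without a filter, where 2 of 8, 1 of 8 and 2 of 9 had an unadjusted p under 0.05. DLL3, JAG2 and DLL1 rest on few read pairs, and for DLL1 the parts of depth and of alternate copies were not tested.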
